A study of Mus musculus with 12 samples.

Results

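The B-lineage genes Jchain, Cd79a, Cd79b, Ms4a1, Blk, Ighm, Cd22 and Pax5 were followed in TEL-JAK2 leukemias and in normal thymocytes of the mouse. They are 8 of the 8251 genes analysed on the array, and 26 probe sets carried 1 of these names alone. The genes were chosen with the leukemia and thymocyte values of these arrays in view, so their differences between the groups are given as descriptions, without a test. Affymetrix 3' expression arrays measured total RNA from cell suspensions of the thymus of C57Bl/6 mice. There were 8 arrays of leukemic cells from terminally ill TEL-JAK2 mice of unstated age, and 4 arrays of thymocytes from wild-type mice aged 2 months. TEL-JAK2 is a fusion of the transcription factor TEL with the tyrosine kinase JAK2, and the labels do not name the promoter that drives it. The labels do not state that each array came from a separate animal. Every p-value below takes the arrays as separate units, and the spread between them may be partly technical. No sorting step is named in the labels, and in whole suspensions more cells of a type and more RNA per cell cannot be told apart.

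B cells carry an antigen receptor made of membrane immunoglobulin, whose mu heavy chain is encoded by Ighm, and of the signalling chains CD79A and CD79B. The kinase BLK acts downstream of this receptor, CD22 dampens it, the surface protein CD20 is encoded by Ms4a1, and PAX5 is the transcription factor that commits cells to the lineage. The J chain, encoded by Jchain, joins immunoglobulin units into IgM pentamers and IgA dimers and is made mainly in antibody-secreting cells. The normal thymus holds a small B-cell population, and Blk is also expressed in some developing T cells.

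The RefSeq promoter table (GRCm38.p6) held 4 of the 8 genes, Jchain, Cd79a, Cd22 and Pax5. The 250 bases before the transcription start are shown for Jchain, which had the widest spread among leukemias, and for Cd79a and Cd22, which followed another order of leukemias. The windows lie at chr5:88527898-88528147 on the minus strand for Jchain, chr7:24897247-24897496 on the plus strand for Cd79a and chr7:30879029-30879278 on the minus strand for Cd22. Capitals mark matches to the E-box CAGGTG, the ETS motif AGGAAGTG and the EBF palindrome, searched on both strands.
Jchain: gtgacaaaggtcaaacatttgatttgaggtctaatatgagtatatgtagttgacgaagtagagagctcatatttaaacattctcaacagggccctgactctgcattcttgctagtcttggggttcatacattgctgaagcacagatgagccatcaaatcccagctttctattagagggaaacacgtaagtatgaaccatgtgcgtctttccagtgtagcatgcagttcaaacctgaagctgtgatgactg
Cd79a: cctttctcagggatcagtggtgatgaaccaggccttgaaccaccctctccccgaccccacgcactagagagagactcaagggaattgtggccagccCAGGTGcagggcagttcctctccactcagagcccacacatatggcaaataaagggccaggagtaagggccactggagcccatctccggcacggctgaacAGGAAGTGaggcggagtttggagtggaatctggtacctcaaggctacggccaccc
Cd22: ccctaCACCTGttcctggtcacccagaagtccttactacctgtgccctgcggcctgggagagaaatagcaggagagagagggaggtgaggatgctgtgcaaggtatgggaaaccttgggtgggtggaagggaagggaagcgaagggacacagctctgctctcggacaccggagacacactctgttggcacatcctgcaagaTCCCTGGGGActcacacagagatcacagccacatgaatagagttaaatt
The Cd79a window held CAGGTG once, a match found in 17.2% of all 32851 promoter windows of the same length, and AGGAAGTG once, found in 3.14%. The Cd22 window held the reverse complement of the E-box and 1 match to the EBF palindrome, which 0.779% of windows held. None of these motifs, nor the octamer ATTTGCAT (1.6% of windows) or the STAT palindrome TTCNNNGAA (7.02%), was found in the Jchain window, and the Pax5 window held none of the 5 either. No 2 matches overlapped.

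The arrays had closely similar brightness, with medians of 66.48 to 70.18 intensity units. A level near background was read against the 95th percentile of 19 control probe sets for non-mouse transcripts, which lay between 5.20 and 5.59 on the log2 scale across arrays. T-cell receptor genes were bright in both groups, with Cd3e at 10.22 to 11.34 (median 11.08) in leukemias and 11.09 to 11.26 in thymocyte arrays on the log2 scale. Of 8 T-cell markers, 1 rose (Cd2), 1 fell (Cd247) and 6 did not pass limma's test at an adjusted p under 0.05, which 17.3% of all genes passed, 5.41% higher and 11.9% lower in leukemia.

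Jchain was far brighter in leukemias 2 and 4 than in any other array. On the log2 intensity scale probe set 102372_at read 6.66, 10.66, 6.47, 10.22, 6.21, 5.99, 6.71 and 5.78 in leukemias 1 to 8, against 5.12, 5.39, 5.30 and 4.93 in the thymocyte arrays. All 8 leukemias lay above all 4 thymocyte arrays, whose mean lay below the control percentile. Leukemia 2 was at least 39.5-fold and leukemia 4 at least 29.1-fold above the thymocyte level, and the other 6 leukemias at least 1.33-fold to 2.55-fold, each taken against the control percentile or the thymocyte array's own value, whichever was higher. The group means were 7.34 ± 1.95 (SD, n = 8) in leukemias and 5.18 ± 0.21 (SD, n = 4) in thymocytes, a measured log2 difference of 2.15 (SE 0.87). Because the thymocyte level was not above the control percentile, the mean is given as at least 3.94-fold higher in leukemias. The mean stands for few of the leukemias, whose median was 6.57. By its SD over leukemias Jchain ranked 5 of 8251 genes. Without leukemia 2 the difference was 1.68 and without leukemia 4 it was 1.74.

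Leukemias 2 and 4 both have a title number of 4 digits, as do leukemias 3 and 5 and 3 thymocyte arrays, and the labels leave the meaning of that number unstated. The log2 difference of Jchain was 3.12 among arrays with such a number, 1.36 among the others, where only 1 thymocyte array remained, and 2.56 with the title class as a block. Of the 8 genes, Jchain alone had leukemias that all lay above all thymocyte arrays when each gene was read by its brightest probe set. Over all genes this held for 4.21%, and nothing is read from the count because the genes were chosen on this contrast. By probe sets, all leukemias lay above all thymocyte arrays for 2 of 26, those of Jchain and the dimmer Blk probe set, where the share over all probe sets was 3.84%.

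**Figure D1:**
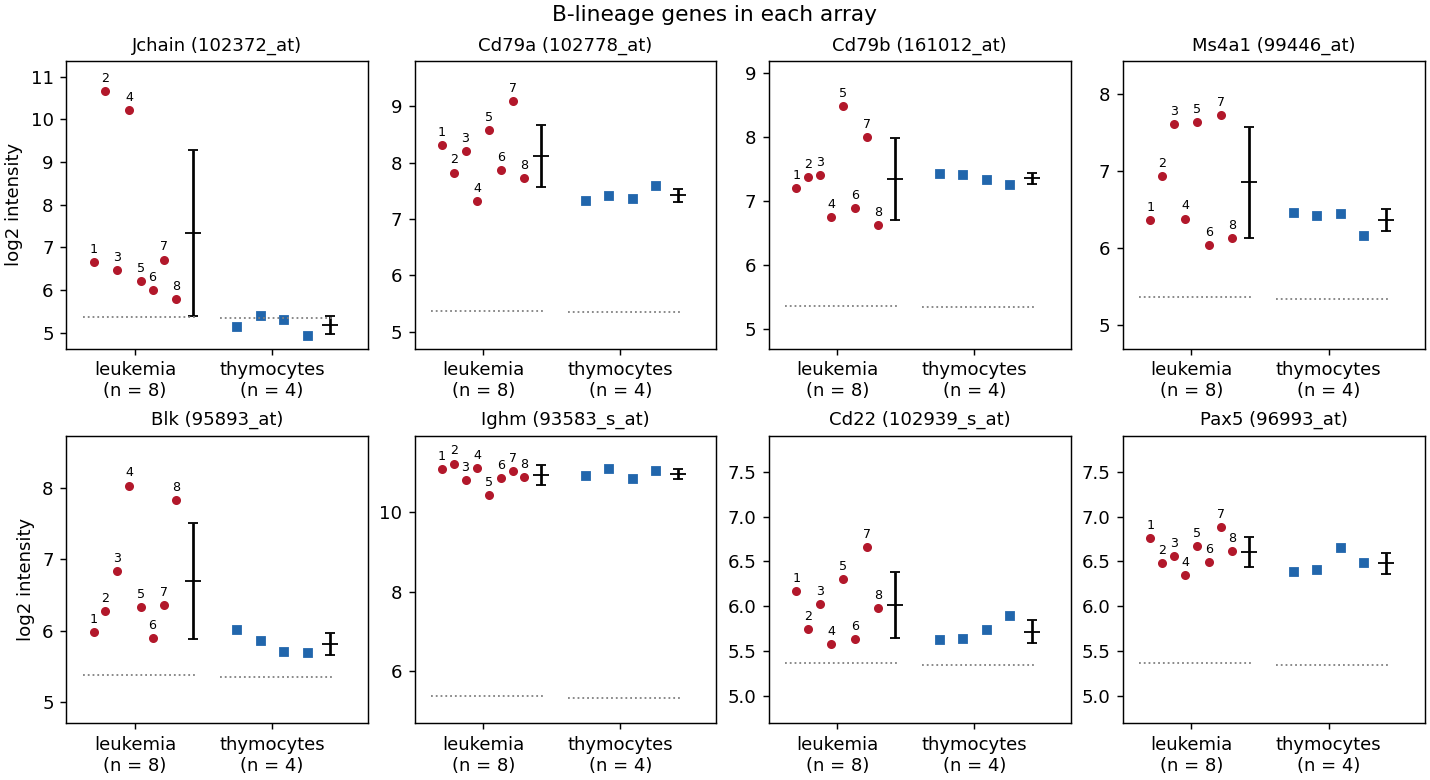
Log2 intensity of each B-lineage gene (brightest probe set) in every array. Red circles are leukemias 1 to 8, numbered, blue squares are thymocyte arrays, black bars are the mean ± SD, and dotted lines are the mean control percentile of each group; the vertical axes differ between panels. Jchain stands at 10.66 and 10.22 in leukemias 2 and 4, Blk is highest in leukemias 4 and 8, and Cd79b and Ms4a1 are highest in leukemias 3, 5 and 7.

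Blk, the Src-family kinase, was highest in leukemias 4 and 8 on both of its probe sets. Probe set 95893_at read 5.98, 6.27, 6.84, 8.04, 6.34, 5.89, 6.36 and 7.83 in leukemias 1 to 8, against 6.01, 5.85, 5.69 and 5.69 in thymocyte arrays (log2 intensity). Leukemia 4 was 4.68-fold and leukemia 8 4.06-fold above the thymocyte mean, while leukemias 1 and 6 lay within the thymocyte range. The dimmer probe set 92359_at read 6.89 in leukemia 4 and 6.34 in leukemia 8, between 5.44 and 5.94 in the other leukemias, and 5.16 to 5.28 in thymocyte arrays. The log2 difference between the groups was 0.88 (SE 0.37) on 95893_at, with n = 8 and n = 4. On 92359_at no thymocyte array was above the control percentile, and the leukemia mean was at least 1.45-fold higher. Leukemia 4 was thus high for both Jchain and Blk, whereas leukemia 2, the highest for Jchain, read 6.27 for Blk and leukemia 8, high for Blk, read 5.78 for Jchain, the lowest of the leukemias.

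The receptor signalling chain Cd79a, the inhibitory coreceptor Cd22 and the surface gene Ms4a1 were highest in leukemia 7 or 5. Cd79a (102778_at) read 7.32 at the lowest, 8.03 at the median and 9.10 at the highest in leukemias, against 7.32, 7.40, 7.36 and 7.59 in thymocyte arrays. The highest were leukemias 7 (9.10), 5 (8.57) and 1 (8.30), and 7 of 8 leukemias lay above every thymocyte array. Leukemia 4 was the exception and lay just below the lowest of them. The log2 difference of Cd79a was 0.70 (SE 0.25), with means of 8.11 ± 0.55 (SD, n = 8) in leukemias and 7.42 ± 0.12 (SD, n = 4) in thymocytes.

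Cd79b, the partner of Cd79a in the receptor, lay on both sides of the thymocyte level. Its probe set 161012_at read 7.20, 7.38, 7.42, 6.76, 8.49, 6.89, 8.001 and 6.63 in leukemias 1 to 8, against 7.43, 7.42, 7.33 and 7.25 in thymocyte arrays. Leukemias 5 and 7 lay above every thymocyte array and leukemias 1, 4, 6 and 8 below every one. The mean difference was -0.01 on the log2 scale (SE 0.29), beside an SD of 0.64 among leukemias and 0.08 among thymocyte arrays.

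Ms4a1 was highest in leukemias 7, 5 and 3 on its brighter probe set. Probe set 99446_at read 7.72 in leukemia 7, 7.63 in leukemia 5 and 7.61 in leukemia 3, and 6.04 to 6.93 in the other 5, against 6.46, 6.42, 6.44 and 6.15 in thymocyte arrays. The second probe set, 104173_at, was highest in leukemias 5 (7.21) and 3 (7.09), with leukemia 2 (6.88) above leukemia 7 (6.78). The log2 differences were 0.48 (SE 0.32) and 0.23 (SE 0.14), both with overlap between the groups. Cd22 was read by 1 probe set, 102939_s_at, whose name marks probes shared with other transcripts. It read 5.58 at the lowest, 6.00 at the median and 6.66 at the highest in leukemias, against 5.62, 5.63, 5.74 and 5.89 in thymocyte arrays. Leukemia 7 was highest and leukemia 4 lowest, and the log2 difference was 0.29 (SE 0.17).

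Pax5 differed little between the arrays. Probe set 96993_at read 6.35 at the lowest, 6.59 at the median and 6.88 at the highest in leukemias, against 6.38, 6.41, 6.65 and 6.49 in thymocyte arrays, a log2 difference of 0.12 (SE 0.09). Probe set 102578_at gave 0.09 (SE 0.09), and the 2 probe sets did not share an order of leukemias, with leukemia 7 highest on the first and leukemia 6 on the second.

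**Figure D2:**
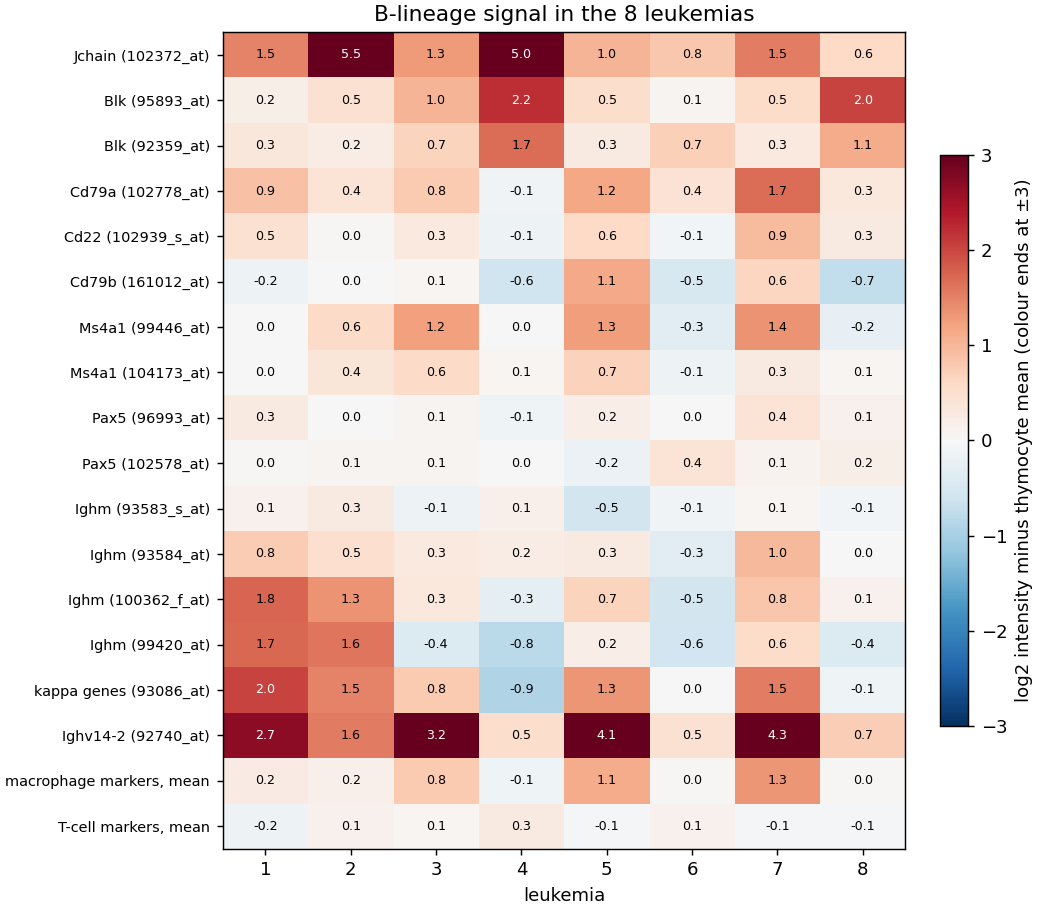
Log2 intensity minus the thymocyte mean in leukemias 1 to 8 (columns) for B-lineage probe sets, for a probe set annotated to 5 kappa light chain genes, for Ighv14-2 and for the mean of 2 marker lists (rows). Red is above and blue below the thymocyte mean, and the colour ends at ±3. Leukemia 4 is high for Jchain and Blk and low for Cd79a, Cd22, Cd79b and the kappa probe set.

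Ighm was represented by 16 probe sets that disagreed in level and in pattern. The brightest, 93583_s_at, read 10.42 at the lowest, 10.96 at the median and 11.23 at the highest in leukemias, against 10.90, 11.10, 10.83 and 11.03 in thymocyte arrays, with a log2 difference of -0.03 (SE 0.12). The next, 93584_at, was highest in leukemias 7 (9.85) and 1 (9.64), against 8.75 to 8.96 in thymocyte arrays, and gave a log2 difference of 0.34 (SE 0.19). Probe set 99420_at read 8.76 and 8.65 in leukemias 1 and 2 and 6.25 to 7.61 in the others, against 6.76 to 7.33 in thymocyte arrays. Over the 16 probe sets the log2 differences ran from -0.03 to 0.53 with a median of 0.16. Of these probe sets 7 lay below the control percentile in both groups, and 6 have names that mark shared probes. A further 3 probe sets were annotated to Ighm together with other immunoglobulin genes and were left out of the 26.

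**Figure D3:**
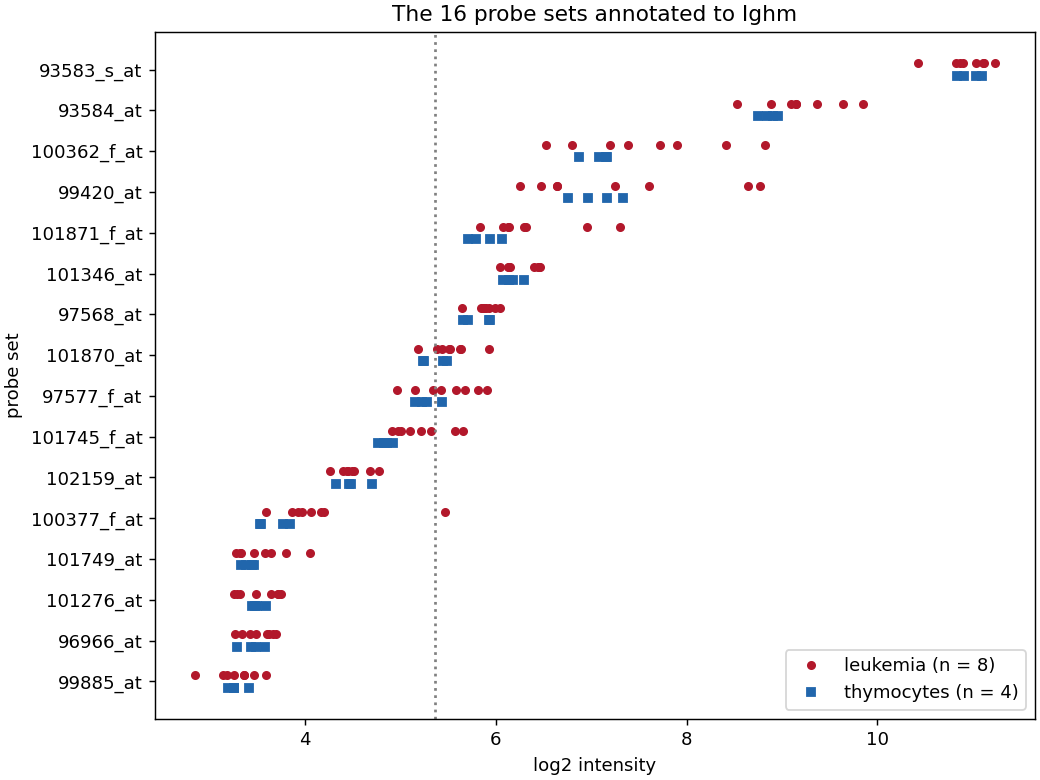
Log2 intensity (horizontal axis) of the 16 probe sets annotated to Ighm (rows, ordered by leukemia mean) in leukemias (red circles) and thymocyte arrays (blue squares). The dotted line is the mean control percentile over all arrays; 93583_s_at overlaps fully between the groups, while 99420_at and 100362_f_at spread upward in some leukemias.

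Probe sets of other immunoglobulin genes were most often highest in leukemia 1. A probe set annotated to 5 kappa light chain genes, 93086_at, read 12.15, 11.62, 10.91, 9.23, 11.44, 10.15, 11.66 and 9.999 in leukemias 1 to 8, against 10.11, 10.22, 10.03 and 10.13 in thymocyte arrays. Leukemias 4 and 8 lay below every thymocyte array there, and leukemias 1, 2, 3, 5 and 7 above every one. Among 48 probe sets of 26 other immunoglobulin genes, 21 were highest in leukemia 1, 10 in leukemia 7, 6 in leukemia 2 and 0 in leukemia 4. Some of these probe sets, also among the 21, lay below the control percentile in both groups. Others have names that mark shared probes, so the probe sets are not separate readings. Of the 26 genes 1 rose, Igkv1-133 (log2 change 0.75, limma adjusted p = 0.0325), whose mean lay below the control percentile in both groups, and 0 fell. Over all genes 5.41% rose and 11.9% fell. The median log2 change was 0.20 over the 26 genes and 0.0037 over all 8251 genes. The 3 probe sets of Ighv14-2 were highest in leukemias 7, 5 and 3. The brightest over all arrays, 92741_g_at, did not pass (limma adjusted p = 0.0788). On each of the 3 all leukemias lay above all thymocyte arrays, as on 5 of the 48 probe sets, beside 3.84% of all probe sets. Probe set 92740_at read 7.63, 7.46 and 6.56 in leukemias 7, 5 and 3, against 3.30 to 3.42 in thymocyte arrays. Its thymocyte mean lay below the control percentile, which 4 of the 8 leukemias exceeded. The leukemia mean is therefore given only as at least 1.16-fold higher. That probe set and 100583_at, which is annotated to Igha and was highest in leukemias 1 and 2, were designed from the same sequence record, so gene names within the immunoglobulin loci are uncertain on this array.

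Other B-lineage genes were read from 5 lists, which were written with earlier results of these data known, so their counts are a description. Of 63 genes analysed, 4 rose, 2 fell and 57 did not pass limma's test at an adjusted p under 0.05, beside the 17.3% called over all genes, and the median log2 change was 0.14. In B-cell receptor signalling 0 of 12 rose and 1 fell, Prkcb, the kinase that links the receptor to NF-kappaB and is also used by T cells. Prkcb read 9.03 at the lowest, 9.82 at the median and 10.07 at the highest in leukemias, against 10.59 to 10.70 in thymocyte arrays, a log2 change of -0.98 (SE 0.19, limma adjusted p = 0.00233). The kinases Btk (0.29, SE 0.16) and Syk (0.11, SE 0.08) and the adaptor Blnk (0.10, SE 0.14) showed small log2 differences that did not pass.

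Among 8 B-lineage transcription factors 1 rose and 0 fell. Irf8, which acts in B cells, dendritic cells and macrophages, read 7.26 at the lowest, 8.30 at the median and 9.10 at the highest in leukemias, against 6.57 to 7.22 in thymocyte arrays (log2 change 1.20, SE 0.35, limma adjusted p = 0.0301). Irf8 was highest in leukemias 3, 7 and 5 and lowest in leukemia 4, as the macrophage score given below also was highest in leukemias 7, 5 and 3 and lowest in 4. It passed with that score as a covariate, an alternative chosen after seeing the data. That fit does not measure the part of macrophage RNA in the Irf8 values, which was not tested. The call of Irf8 was lost without leukemia 5, without any 1 of the 4 thymocyte arrays, and among arrays with a 4-digit title number alone. Ebf1 and Pou2af1, factors that mark the B lineage, were the only 2 of the 8 below the control percentile in both groups. Their means were 4.04 and 4.43 in leukemias and 3.84 and 4.24 in thymocytes.

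Of 13 B-cell surface and survival genes 2 rose and 0 fell. The tetraspanin gene Cd37 rose by 0.51 (SE 0.10, limma adjusted p = 0.00309) and the lymphotoxin gene Ltb by 0.88 (SE 0.11, limma adjusted p = 0.000168) on the log2 scale, and both are also expressed by T cells. All 8 leukemias lay above all 4 thymocyte arrays for both, which held for 4.21% of all genes. The complement receptor gene Cr2, from the receptor signalling list, and Fcrla and Cd180 lay below the control percentile in both groups, and so did 18 of the 63 genes in all. The share over all genes was not counted, so nothing is read from that number. The invariant chain gene Cd74, which B cells share with other antigen-presenting cells, was 1.16 higher on the log2 scale (SE 0.38), short of the threshold (limma adjusted p = 0.0536).

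In the early B-cell and pre-B receptor list 0 of 8 rose and 1 fell. That gene was Rag2, a subunit of the recombinase that B- and T-cell precursors share, with 5.29 at the lowest, 5.97 at the median and 6.84 at the highest in leukemias and 8.21 to 8.57 in thymocyte arrays (log2 change -2.39, SE 0.26, limma adjusted p = 3.66e-05). Rag1, the other recombinase subunit, had a larger measured log2 difference, -2.50 (SE 0.92, limma adjusted p = 0.082), and Dntt, which adds bases at the joints, one of -1.72 (SE 0.59, limma adjusted p = 0.0642). Neither passed. All 8 leukemias lay below all 4 thymocyte arrays for both, which held for 8.11% of all genes. The surrogate light chain genes Vpreb1 (0.03, SE 0.09) and Igll1 (0.25, SE 0.10) did not pass. Of 22 plasma cell and secretory genes 1 rose, Herpud1, a component of endoplasmic reticulum quality control (log2 change 0.43, SE 0.09, limma adjusted p = 0.00468), and 0 fell. The plasma cell factor Xbp1 (-0.21, SE 0.14), the surface gene Sdc1 (0.14, SE 0.08) and Prdm1 (0.34, SE 0.20, below the control percentile in both groups) did not pass.

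**Figure D4:**
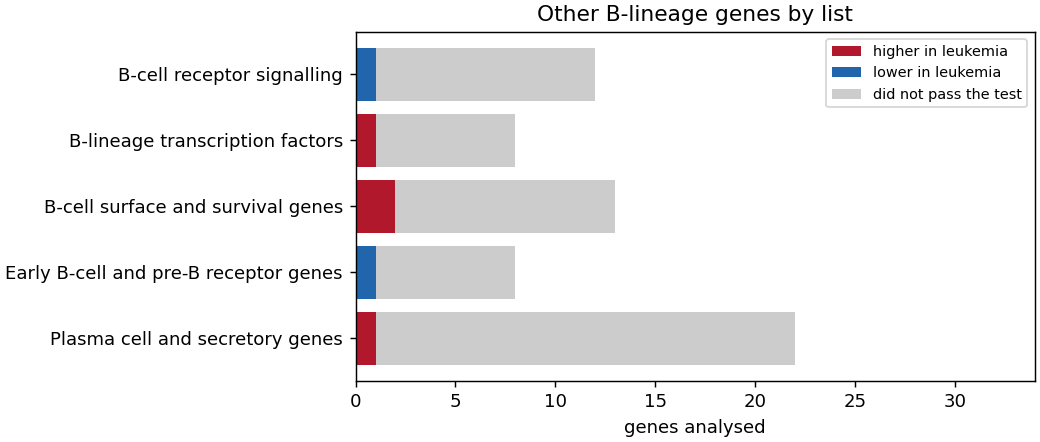
Number of genes (horizontal axis) in each of 5 lists of other B-lineage genes that were higher in leukemia (red), lower (blue) or did not pass limma's test (grey). Each list held 1 or 2 called genes, against 8 to 22 genes analysed.

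Markers of other cells, also listed with earlier results of these data known, were set beside these values. The mean log2 score of 12 macrophage markers, relative to the thymocyte mean, was 0.79, 1.11 and 1.32 in leukemias 3, 5 and 7 and -0.14 to 0.25 in the other 5, against -0.13 to 0.17 in thymocyte arrays. These are the 3 leukemias with the highest Ms4a1 (99446_at), Cd79b, Irf8 and Ighv14-2 values, and leukemia 4, the lowest by macrophage score, was the lowest for Cd79a and Cd22. Cd79a and Cd22 were highest in leukemias 7, 5 and 1, and Ms4a1 probe set 104173_at in leukemias 5, 3 and 2. Leukemias 3, 5 and 7 were not the highest 3 for any probe set of Jchain, Blk, Ighm or Pax5. No macrophage marker passed the test (0 rose and 0 fell by limma), and 4 of 12 lay below the control percentile in both groups. The summed intensity of the list was 1118 to 4992 in leukemias and 1159 to 1534 in thymocyte arrays. The complement gene C1qc ranged from 7.76 to 10.67 in leukemias and from 7.98 to 8.63 in thymocyte arrays on the log2 scale. The part of macrophage RNA in the B-lineage values was not tested. In leukemias 2 and 4 the macrophage score was 0.16 and -0.14, beside the highest Jchain values.

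No dendritic cell marker passed (0 of 8), with scores of -0.16 to 0.32 in leukemias and -0.04 to 0.04 in thymocyte arrays. Of 6 NK cell markers, all below the control percentile in both groups, 0 rose and 1 fell. Of 9 granulocyte markers 4 fell, of 5 erythroid markers 0 changed, and of 12 epithelial and stromal markers 1 rose and 1 fell, where 5.41% of all genes rose and 11.9% fell.

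Whether Jchain varied with the other genes was asked across leukemias. The largest gap between neighbouring Jchain values was 71.8% of their range, above the limit of 40% for separate clusters, so no correlation over all 8 is tested or read as a relation. Within the 6 leukemias other than 2 and 4, 11 relations were looked at, and 6 had no such gap on either axis. Jchain had r = 0.889 with the mean of the plasma cell list (exact permutation p = 0.025, adjusted 0.15; Spearman rho = 0.943, exact p = 0.0167, adjusted 0.10; r = 0.817 without the 2 leukemias farthest from the median). With Cd79a it had r = 0.772 (exact permutation p = 0.0708, adjusted 0.212; Spearman rho = 0.829, exact p = 0.0583, adjusted 0.175; r = 0.402 without those 2). With Pax5, Cd22, the dendritic cell score and Cd79b Pearson's r was 0.701, 0.665, 0.573 and 0.485 and Spearman's rho 0.714, 0.771, 0.429 and 0.6. Without the 2 farthest leukemias r was 0.717, 0.571, 0.488 and -0.039 for these. The exact two-sided permutation p of these 4 lay between 0.103 and 0.419, and no relation passed after adjustment. The title classes hold too few of these leukemias to repeat the relations within them. In leukemias 2 and 4, left out of the relations, the plasma cell score was 0.15 and 0.14 relative to the thymocyte mean. That score ran from 0.02 to 0.37 in the 6 leukemias used, and 7 of its 22 genes lay below the control percentile in both groups.

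The genes whose pattern was most like that of Jchain were taken as a description from 1157 genes above the control percentile that varied among leukemias. By Pearson's r over the 8 leukemias these were, as a ranking of likeness only, Pafah2 (0.98), Tob1 (0.92), Ptger4 (0.89), Cd28 (0.85) and Sec23a (0.85), and the values rest on leukemias 2 and 4. Pafah2, which encodes a platelet-activating factor acetylhydrolase, read 8.32 and 7.99 in leukemias 2 and 4 and 5.39 to 5.81 in the other 6, against 5.86 to 5.99 in thymocyte arrays. Tob1, an antiproliferative gene, read 7.31 and 7.18 in leukemias 2 and 4 and 5.47 to 6.26 in the others, against 6.40 to 7.27 in thymocyte arrays. Cd28, a T-cell costimulatory receptor, read 7.30 and 6.65 there and 6.08 to 6.52 in the others, against 7.97 to 9.02 in thymocyte arrays. The lowest coefficients were those of the clock gene Per1 (-0.83), the glucose-6-phosphate transporter gene Slc37a4 (-0.81) and AU020206 (-0.79).

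**Figure D5:**
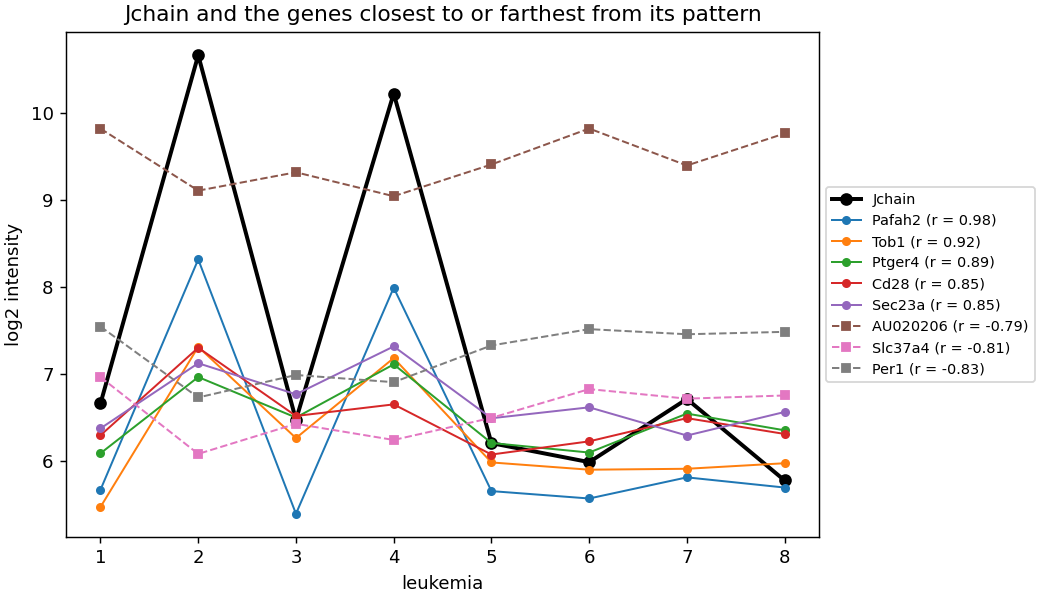
Log2 intensity (vertical axis) in leukemias 1 to 8 (horizontal axis) of Jchain (black), of the 5 genes with the highest Pearson's r to it (solid lines) and of the 3 with the lowest (dashed lines). Pafah2 shares the peaks of Jchain in leukemias 2 and 4, at 8.32 and 7.99.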

How the data were processed

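RNA of leukemia suspensions was hybridised to 8 arrays and RNA of thymocyte suspensions to 4. The authors deposited 1 linear-scale intensity per probe set and array. RMA is the tool named, per the submitters' processing notes, with no version. Every intensity was above 0 and was converted to log2 without an offset, and no low values were filtered. Of 12422 probe sets tested, 10833 had 1 gene in the platform annotation, 396 several and 1193 none. Symbols were updated by gene ID to RefSeq (GRCm38.p6), which held 10817 of the first kind. Each of 8251 genes was read by its brightest probe set over all 12 arrays. Groups were compared by limma's moderated test (two-sided, without covariates; lmFit followed by eBayes; limma 3.58.1, R 4.3.3), with Benjamini-Hochberg adjustment over all genes and a threshold of 0.05. The fit was tested on simulated data. Standard errors of single probe sets come from the fit over all probe sets. Correlations used exact permutations in Python 3.11.15, with adjustment over the 6 relations that gave one.

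The 8 genes and the lists, of B-lineage genes and of markers of T cells, macrophages, dendritic cells, NK cells, granulocytes, erythroid cells and stroma, were chosen with earlier results of these data known. The lists named 86 B-lineage genes, of which 63 were analysed. Genes were named by a rule that takes the 8 genes, up to 4 called genes per B-lineage list and direction, up to 2 of the brightest markers of other cells, immunoglobulin genes, and the 5 genes most and 3 least like Jchain among those with an SD over leukemias of at least 0.3. Other genes were named after their values were seen. Precision is limited by the number of arrays. Alternatives covered normalization, dim and shared probe sets, title numbers, the variance model, each array left out, and, added after seeing the data, the macrophage score as a covariate.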

Additional observations from a re-analysis of the deposited data

Results flagged for a closer look

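Dixon's criterion was applied to the 26 probe sets and to the 6 called B-lineage genes in each group, 64 groups of arrays in all, and marked 2, where chance marks about 1 group in 20. On Ighm probe set 100377_f_at leukemia 1 read 5.47, with the next leukemia at 4.20 and the lowest at 3.59. Every array lay below its own control percentile on that probe set, leukemia 1 included (5.54). On Ms4a1 probe set 99446_at thymocyte array 4 read 6.15, below the others at 6.42 to 6.46. Jchain was not marked, since its 2 highest leukemias lie close to each other.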

How the results depend on the processing

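The log2 difference of Jchain was 2.15 as reported, 2.15 to 3.12 over 7 other settings and 1.68 to 2.38 when each array was left out in turn. The genes of the B-lineage lists that fell numbered 2 as reported and 4 among arrays with a 4-digit title number only or with the macrophage score as a covariate, and 2 to 4 when arrays were left out, with 4 without leukemia 1. Those that rose numbered 4 as reported and 3 to 5 under every setting run. Cd37, Ltb, Herpud1, Prkcb and Rag2 passed under all 21 settings, and Irf8 under 15. Over all genes 983 fell as reported, and 626 to 1135 when arrays were left out, with 626 without thymocyte array 1 and 655 without thymocyte array 2. The brightest Ighm probe set can share probes, and without such probe sets the log2 difference of Ighm went to 0.34. Of the Jchain relations 0 passed as reported and 1 when only genes above the median brightness were kept. That setting left out Blk and Cd22 and took the list means over fewer genes, so its relations differ from those reported. The cause of the change was not tested. The relations used 6 leukemias, so leaving out 1 of them left too few arrays, and leaving out leukemia 2 or 4 could not alter them. No paired analysis was possible because the labels give the groups no shared replicate numbers. Signal near the control percentile limits Jchain in thymocytes, the dimmer Blk probe set and 7 of 16 Ighm probe sets.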
